A study of Mus musculus with 32 samples.

Results

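The cytochrome P450 family was followed in whole kidney of mice that lack Col4a3, a chain of the collagen of the glomerular basement membrane whose loss causes a progressive kidney disease of the Alport type. Members were taken by symbol: every gene whose symbol starts with Cyp and a digit, except 4 that were set aside, read from the array feature with the highest mean among those naming that symbol alone. This gave 94 of the 22180 genes measured, in 14 families and 36 subfamilies. Another 5 Cyp symbols lay only on features that name several genes (Cyp2c67, Cyp3a41a, Cyp3a41b, Cyp4a10 and Cyp4a32) and were not analysed here. The 4 groups of 8 male mice of strain 129 were Col4a3-/- at 7 weeks and Col4a3+/+ littermates at 7 weeks, and Col4a3-/- at 4 weeks and Col4a3+/+ littermates at 4 weeks, called KO and WT below. The labels do not say how Col4a3 was inactivated, and all groups share strain and sex. Each mouse contributed 1 array of 32, with signals on the log2 scale after robust multi-array averaging (RMA). A member is said to have risen, fallen or changed where its adjusted p in limma was below 0.05 over all 22180 genes, and differences are log2 values ± standard error.

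Cytochromes P450 are heme enzymes that insert an oxygen atom into their substrate, most of them in the endoplasmic reticulum with electrons from a reductase and cytochrome b5, and a few in mitochondria with electrons from ferredoxin. Families 1 to 3 act mainly on drugs, foreign compounds, steroids and arachidonic acid, family 4 hydroxylates the ends of fatty acids and eicosanoids, and the remaining families make or clear sterols, bile acids, steroid hormones and retinoic acid. In the kidney they are most abundant in the proximal tubule, and in mice several depend on sex and on age. Maturation between 4 and 7 weeks can therefore be set beside the change in KO kidney.

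Promoter sequences are shown for a pair of genes of the Cyp2d cluster that were lower in KO kidney at 7 weeks, of which Cyp2d9 passed the test for age in WT and Cyp2d26 did not, and for the pair with the largest differences among the 5 members that were higher. They are RefSeq sequences on build GRCm38.p6, 300 bases around the annotated start, at chr15:82452127-82452426 on the plus strand for Cyp2d9, chr15:82794196-82794495 on the minus strand for Cyp2d26, chr17:79715012-79715311 on the minus strand for Cyp1b1 and chr8:45333114-45333413 on the minus strand for Cyp4v3. Capitals mark matches, on either strand, to the TATA box core TATAAA or to GCGTG, the core of the element bound by the aryl hydrocarbon receptor.
Cyp2d9: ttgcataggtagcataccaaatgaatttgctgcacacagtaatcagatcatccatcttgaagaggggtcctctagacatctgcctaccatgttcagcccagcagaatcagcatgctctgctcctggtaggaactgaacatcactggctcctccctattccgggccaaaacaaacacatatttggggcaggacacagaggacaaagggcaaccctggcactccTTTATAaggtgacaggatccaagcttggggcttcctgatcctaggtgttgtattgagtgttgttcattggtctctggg
Cyp2d26: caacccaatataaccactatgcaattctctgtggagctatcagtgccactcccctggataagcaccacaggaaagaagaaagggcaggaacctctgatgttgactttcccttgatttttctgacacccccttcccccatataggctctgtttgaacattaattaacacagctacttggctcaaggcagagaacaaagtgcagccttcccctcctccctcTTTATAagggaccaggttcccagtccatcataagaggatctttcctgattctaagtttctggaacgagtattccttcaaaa
Cyp1b1: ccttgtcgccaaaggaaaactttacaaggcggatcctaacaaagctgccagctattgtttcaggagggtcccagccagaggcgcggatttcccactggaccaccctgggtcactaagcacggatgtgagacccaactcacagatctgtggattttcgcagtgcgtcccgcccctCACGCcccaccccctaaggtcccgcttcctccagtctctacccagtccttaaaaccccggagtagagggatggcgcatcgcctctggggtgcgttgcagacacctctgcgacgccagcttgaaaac
Cyp4v3: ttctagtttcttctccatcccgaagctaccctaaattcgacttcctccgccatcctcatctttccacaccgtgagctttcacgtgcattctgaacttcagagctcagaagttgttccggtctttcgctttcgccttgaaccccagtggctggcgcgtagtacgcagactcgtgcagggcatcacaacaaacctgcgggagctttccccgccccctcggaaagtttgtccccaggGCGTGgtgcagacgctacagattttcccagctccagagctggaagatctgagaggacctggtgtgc
Both Cyp2d windows held 1 match to TATAAA and none to GCGTG, and the windows of Cyp1b1 and Cyp4v3 held 1 match to GCGTG and none to TATAAA. These windows do not stand for the lower and higher members in general. GCGTG was also present for Cyp1a1, Cyp2b10, Cyp2j9, Cyp2j12, Cyp2j13 and Cyp4f14, all lower in KO at 7 weeks. Cyp2s1 and Cyp3a13, which were higher, were not among the members with GCGTG, and Cyp2d12 was not among those with TATAAA. Members without a matched window could not be searched. RefSeq windows were matched for 70 members, with 78 windows, and were not matched for 24. TATAAA was present in 28 of the 78 (35.9%), against 13.6% of all 32851 windows of the same length. GCGTG was present in 17 (21.8%), against 32.4% of all windows, and CAAAGTCCA, a site bound by the factor HNF4, in 8 (10.3%), against 0.475%. The windows with CAAAGTCCA were those of Cyp2c40, Cyp2c65, Cyp2c68, Cyp2c69, Cyp2c70, Cyp3a11, Cyp3a16 and Cyp8b1. Apart from Cyp8b1, these genes had mean signals of 1.90 to 4.80 over all arrays, below the guide to background given later. Only Cyp2c69 and Cyp3a11 among them were lower in KO at 7 weeks, and a part of the site in this was not tested. The 3 motifs were searched on both strands and do not overlap one another in their letters, and paralogs that arose by duplication share promoter sequence, so the windows are not independent.

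Col4a3 signal was 6.97, 7.15 and 7.87 (lowest, median and highest mouse) in KO and 8.74, 8.93 and 9.06 in WT at 7 weeks, and 7.60, 7.86 and 8.42 in KO and 8.46, 8.91 and 9.33 in WT at 4 weeks. KO and WT mice of the same age did not overlap, with differences of -1.65 ± 0.13 (adjusted p = 3.98e-12) and -0.99 ± 0.13 (adjusted p = 8.75e-05). Arrays of a group correlated at 0.965 to 0.995. KO kidneys at 7 weeks also differed in cell markers: all 11 tubular injury genes, all 13 macrophage and myeloid genes and all 10 fibroblast genes were higher than in WT. Of 22 proximal tubule genes 18 were lower and 1 higher, and the mean level of that list per mouse was 10.53 to 11.64 in KO and 11.71 to 11.80 in WT at 7 weeks, and 11.12 to 11.63 in KO and 11.21 to 11.61 in WT at 4 weeks. In whole kidney, fewer cells of a type and less RNA per cell cannot be told apart. As a guide to background, the 95th percentile of the mean signal of 1394 olfactory and vomeronasal receptor genes was 5.44, and 40 members lay above it and 54 did not.

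At 7 weeks, 30 of the 94 members were lower in KO than in WT and 5 were higher. Either way 37.2% of members passed, against 32.3% of all genes. The share lower was 31.9%, against 16.7% of all genes, and the share higher 5.32%, against 15.6% of all genes. The median difference was -0.15 over the members and -0.06 over all genes. The members that rose were Cyp1b1, Cyp2s1, Cyp3a13, Cyp4f16 and Cyp4v3. At 4 weeks no member passed in limma, 7 had an unadjusted p below 0.05 (5 higher and 2 lower), and 0.0406% of all genes passed (0.0316% higher and 0.00902% lower); the differences ran from -0.52 to 0.33 with a median of -0.03. The difference between the ages in the KO effect, tested as an interaction, passed for 17 members. Of these, 13 were toward lower signal (13.8%, against 7.24% of all genes) and 4 toward higher (4.26%, against 9.8% of all genes). That count of 13 was 8 without KO mouse 1 and 7 without KO mouse 6 of the 7-week group.

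Array medians at 7 weeks were 0.114 higher in KO than in WT. With each array centred on its median, the counts at 7 weeks were 5 higher and 45 lower (5.32% and 47.9%), against 11.6% higher and 37.5% lower over all genes. Those of the interaction were then 3 higher and 20 lower (3.19% and 21.3%), against 7.54% and 15.1% over all genes. Among the 40 members above the receptor level, 18 were lower and 4 higher in KO at 7 weeks (45.0% and 10.0%), against 21.3% lower and 21.4% higher among the 14199 genes above it. The level was applied to the mean over all arrays, so a gene can lie above it only through a group where it is high. Cyp4f14, counted among the 18, lay above it through WT at 7 weeks. Among the 54 at or below it, 12 were lower and 1 higher (22.2% and 1.85%), against 16.7% and 15.6% of all genes at any level. The shares among all genes at or below it were not worked out, and these low signals are less reliable as levels. Counts given for subfamilies, gene lists and cell markers at 7 weeks stand beside the same 16.7% lower and 15.6% higher of all genes.

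**Figure D1:**
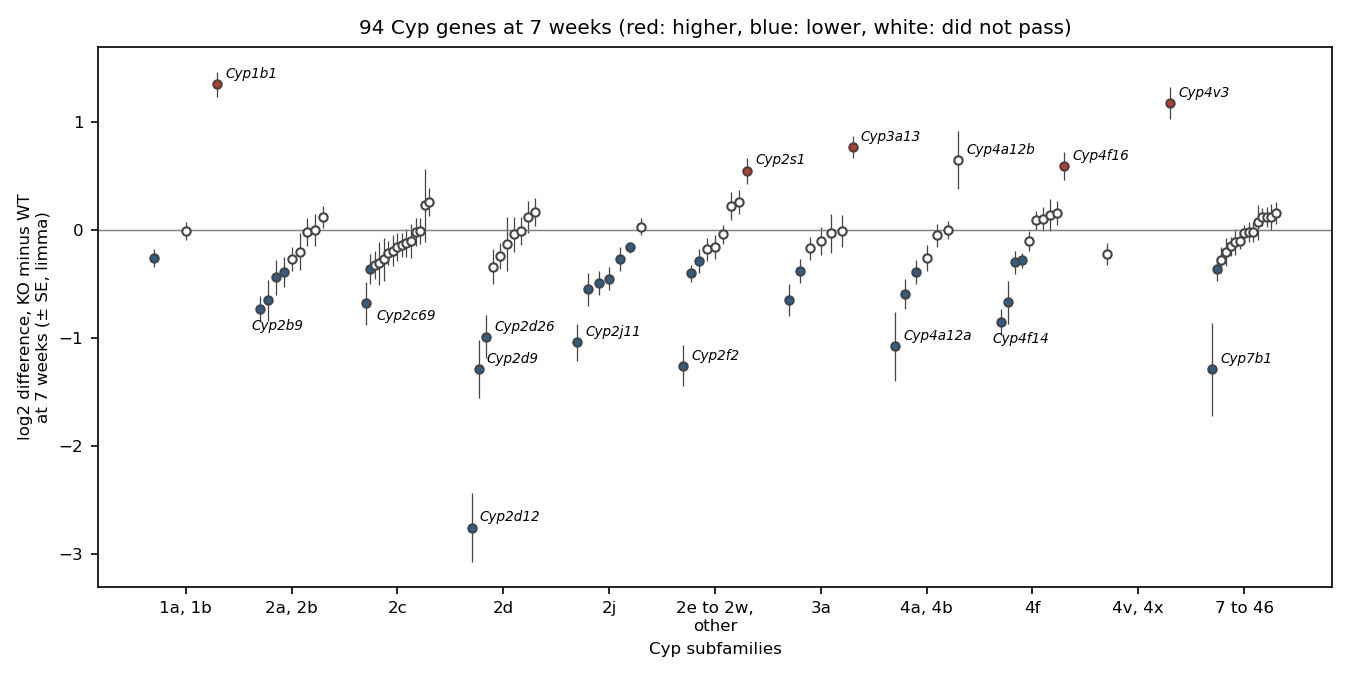
Difference between KO and WT kidney at 7 weeks for all 94 Cyp genes (log2, KO minus WT, y axis), ordered by subfamily (x axis), with limma standard errors and 8 mice per group. The points run from -2.76 for Cyp2d12 to 1.35 for Cyp1b1, with 30 members lower (blue) and 5 higher (red), and the remaining 59 (white) did not pass.

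From 4 to 7 weeks in WT kidney, 20 members rose and 4 fell, where 29.5% of all genes passed. The share that rose was 21.3%, against 15.4% of all genes, and the share that fell 4.26%, against 14.1% of all genes. Counts with age in WT for subfamilies and gene lists below stand beside the same 15.4% and 14.1%. From 4 to 7 weeks in KO kidney, 15 rose (16.0%, against 21.4% of all genes) and 14 fell (14.9%, against 21.3% of all genes). In either direction 30.9% of members passed, against 42.6% of all genes. With arrays centred these KO counts were 14 and 26 (14.9% and 27.7%), against 17.6% higher and 32.6% lower over all genes. Without WT mouse 5 of the 7-week group, 2 members fell with age in WT.

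Of the 20 members that rose with age in WT, 10 rose in KO as well: Cyp27a1, Cyp2a4, Cyp2a5, Cyp2d22, Cyp2d9, Cyp2s1, Cyp4b1, Cyp4f13, Cyp4f17 and Cyp7b1. Cyp2d12 fell in KO, and Cyp2b10, Cyp2b9, Cyp2e1, Cyp2j13, Cyp2u1, Cyp4a12a, Cyp4b1-ps2, Cyp4f14 and Cyp4f15 did not pass there. Another 11 members fell with age in KO without passing in WT. These overlaps, and those with the interaction that follow, were not worked out over all genes. They are therefore not shown to be particular to the family. Whether the age change differed by genotype is what the interaction tests. Of the 20 members that rose in WT it passed for 9: Cyp2a4, Cyp2b9, Cyp2d12, Cyp2d9, Cyp2j13, Cyp2s1, Cyp2u1, Cyp4b1-ps2 and Cyp4f14. Among the other 11, Cyp2b10 (-0.51 ± 0.20, adjusted p = 0.0702), Cyp2e1 (-0.26 ± 0.15, adjusted p = 0.271), Cyp4a12a and Cyp4f15 (-0.56 ± 0.28, adjusted p = 0.181) had passed with age in WT and not in KO, and are not shown to differ between the genotypes. Of the 11 that fell in KO without passing in WT it passed for 4, Cyp2c69, Cyp2d26, Cyp2f2 and Cyp2j11, and not for Cyp2j5 (-0.18 ± 0.08, adjusted p = 0.118). WT mice of 7 weeks enter both the genotype comparison at that age and the age comparison in WT, so their values are only set side by side.

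**Figure D2:**
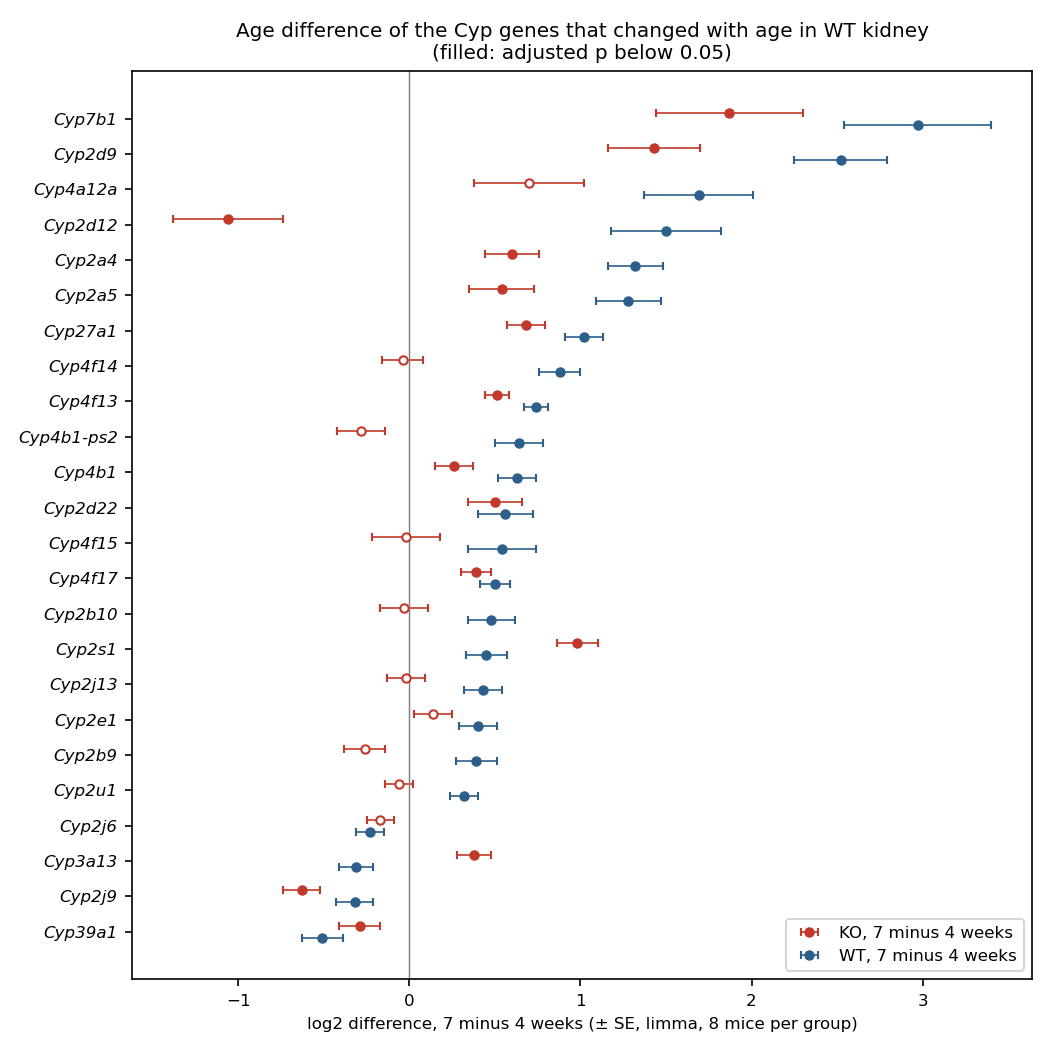
Age difference (log2, 7 minus 4 weeks, x axis) in KO and in WT kidney for the 24 Cyp genes that changed with age in WT, with limma standard errors and 8 mice per group; filled points passed at adjusted p below 0.05. Cyp7b1 and Cyp2d9 rose in both genotypes, by 1.87 in KO and 2.97 in WT and by 1.43 in KO and 2.52 in WT, whereas Cyp2d12 changed by -1.06 in KO and 1.5 in WT.

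The largest difference between KO and WT at 7 weeks among the 94 members was that of Cyp2d12. The 10 members of its subfamily are clustered on chromosome 15, and the subfamily holds steroid and drug hydroxylases. At 7 weeks 3 of the 10 were lower in KO and none higher, and in WT 3 rose with age. Cyp2d12 signal was 5.07, 6.60 and 8.25 in KO and 8.88, 9.14 and 9.97 in WT at 7 weeks, and 6.74, 7.63 and 8.21 in KO and 7.04, 7.86 and 8.12 in WT at 4 weeks. All 8 KO mice lay below all WT mice at 7 weeks, while the groups overlapped at 4 weeks. The difference at 7 weeks was -2.76 ± 0.32, or 6.78-fold lower (adjusted p = 3.26e-08). With age the gene rose by 1.5 ± 0.32 in WT (adjusted p = 5.71e-04) and fell by 1.06 in KO (SE 0.32, adjusted p = 0.00847), and the interaction was -2.56 ± 0.46 (adjusted p = 1.6e-04).

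Cyp2d9, known in mouse liver as a male-type testosterone hydroxylase, had signals of 8.03, 9.03 and 9.53 in KO and 9.80, 10.12 and 11 in WT at 7 weeks. At 4 weeks it had 6.23, 7.52 and 8.49 in KO and 6.83, 7.62 and 8.68 in WT. Again no KO mouse reached the lowest WT mouse at 7 weeks, yet the KO level at 7 weeks stood above that at 4 weeks. The differences were -1.29 ± 0.27 for KO against WT at 7 weeks (adjusted p = 2.57e-04), 1.43 ± 0.27 with age in KO (adjusted p = 5.42e-05) and 2.52 ± 0.27 with age in WT (adjusted p = 6.93e-08). The interaction of -1.09 ± 0.38 was close to the threshold (adjusted p = 0.0452), and its adjusted p rose to as much as 0.0849 when single mice were left out, with 18 of 32 omissions ending the call.

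Cyp2d26, of the same cluster, had signals of 8.14, 9.11 and 9.81 in KO and 9.78, 9.99 and 10.32 in WT at 7 weeks, and 9.21, 9.73 and 10.51 in KO and 9.59, 9.79 and 10.64 in WT at 4 weeks. One side of this pattern is shared with Cyp2d9, a lower KO level at 7 weeks (-0.99 ± 0.20, adjusted p = 1.46e-04), but age in WT gave 0.11 ± 0.20 (adjusted p = 0.75). In KO it fell with age by 0.76 (SE 0.20, adjusted p = 0.00209). The interaction was -0.86 ± 0.28 (adjusted p = 0.0285), and it reached an adjusted p of 0.0558 at most without KO mouse 1, 4 or 6 of 7 weeks. Cyp2d22, the other member that rose in WT (0.56 ± 0.16), rose by 0.50 ± 0.16 in KO, and its difference at 7 weeks of -0.34 ± 0.16 did not pass (adjusted p = 0.11). It did pass with arrays centred (0.0205), with the 7-week groups alone (0.00137) and with array weights (0.0194). The Cyp2d sequences are close paralogs, and signal shared between their probes cannot be told apart here.

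The 8 KO mice at 7 weeks were spread widely. In Cyp2d12, KO mice 1, 4, 6 and 8 had 5.07, 5.45, 5.18 and 6.32, and KO mice 2, 3, 5 and 7 had 7.49, 8.25, 7.48 and 6.89. In Cyp4v3, which rose in KO, the same mice 1, 4, 6 and 8 had 8.43, 8.43, 8.46 and 8.43, against 7.72, 7.33, 7.84 and 7.69 in mice 2, 3, 5 and 7. The 4 mice with the lowest Cyp2d12 thus had the 4 highest Cyp4v3 signals. The same 4 mice also stood apart over all genes, at 56.4 to 62.7 on the first principal component against 24.5 to 36.7 in mice 2, 3, 5 and 7, with array medians of 6.34 to 6.37 against 6.28 to 6.32. No relation was tested.

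**Figure D3:**
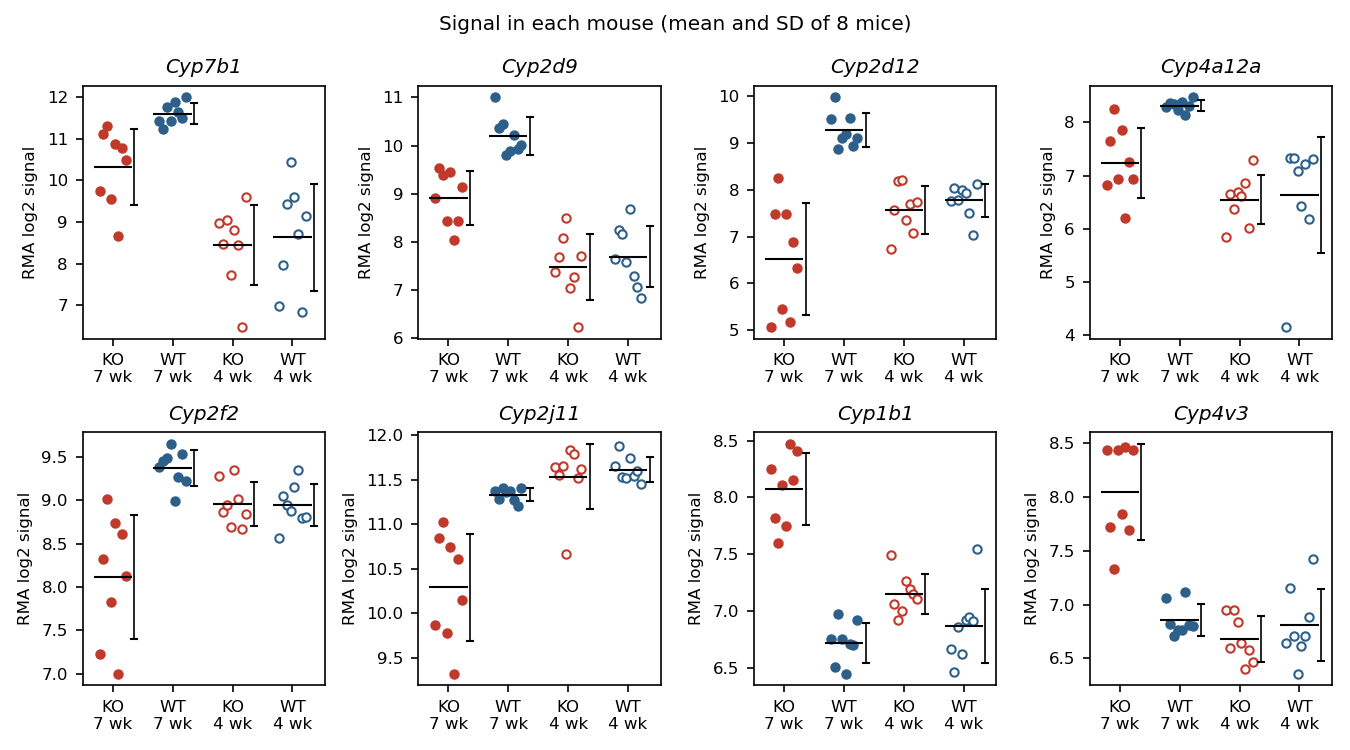
Signal of 8 Cyp genes in each mouse (RMA log2, y axis; each panel has its own scale), by group (x axis), with the mean of 8 mice as a line and the SD as a bar. In Cyp2d12 the KO mice at 7 weeks spread from 5.07 to 8.25 while the WT mice lie between 8.88 and 9.97, and in Cyp4v3 every KO mouse at 7 weeks is above every WT mouse.

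In the Cyp2a and Cyp2b subfamilies, enzymes of steroids, coumarin and drugs, 2 of 4 and 2 of 5 members were lower in KO at 7 weeks, and the same counts rose with age in WT. Cyp2a4, a steroid hydroxylase, had 10.66, 11.36 and 11.70 in KO and 11.61, 11.75 and 11.85 in WT at 7 weeks, and 9.95, 10.80 and 11.15 in KO and 9.66, 10.51 and 10.82 in WT at 4 weeks. At 7 weeks 7 of 8 KO mice lay below all WT mice. The differences were -0.44 ± 0.16 at 7 weeks (adjusted p = 0.0335), 0.60 ± 0.16 with age in KO (adjusted p = 0.00259) and 1.32 ± 0.16 with age in WT (adjusted p = 4.43e-07), with an interaction of -0.71 ± 0.23 (adjusted p = 0.026). Leaving out KO mouse 6 of 7 weeks brought the interaction to 0.0513, and 6 single omissions (WT mice 3, 5 and 7, KO mice 1, 4 and 6 of 7 weeks) ended the call at 7 weeks, with an adjusted p up to 0.0972.

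Cyp2a5, the coumarin hydroxylase, had 6.95, 7.93 and 8.74 in KO and 8.18, 8.54 and 9.0 in WT at 7 weeks, and 6.56, 7.46 and 7.88 in KO and 6.94, 7.27 and 7.57 in WT at 4 weeks. It was lower in KO at 7 weeks (-0.65 ± 0.19, adjusted p = 0.00826) and rose with age by 0.54 ± 0.19 in KO and 1.28 ± 0.19 in WT. The KO rise was lost without any of 5 KO mice (adjusted p up to 0.0681), and in the fit of the KO groups alone (adjusted p = 0.0692). Its interaction of -0.74 did not pass (adjusted p = 0.0578), but did with arrays centred (0.0273) and with low signals left out (0.041). Cyp2a4 and Cyp2a5 are nearly identical in sequence, so their signals may be mixed.

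Cyp2b9 and Cyp2b10 lay below the receptor level. Cyp2b9 had 4.12, 4.23 and 5.04 in KO and 4.74, 5.14 and 5.33 in WT at 7 weeks, a difference of -0.73 ± 0.12 (adjusted p = 1.06e-05), and it rose with age in WT by 0.39 ± 0.12. The interaction for Cyp2b9 was -0.65 ± 0.17 (adjusted p = 0.00623). Cyp2b10 differed by -0.39 ± 0.14 at 7 weeks (adjusted p = 0.0282), a call that 6 single omissions ended, with an adjusted p up to 0.0818.

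Of the 7 Cyp2j genes, arachidonic acid epoxygenases and related enzymes clustered on chromosome 4, 6 were lower in KO at 7 weeks (85.7%, against 16.7% of all genes). These were Cyp2j5, Cyp2j8, Cyp2j9, Cyp2j11, Cyp2j12 and Cyp2j13. Cyp2j6 differed by 0.03 ± 0.08. The median over the 7 was -0.45. With age in WT, Cyp2j13 rose by 0.43 ± 0.11 while Cyp2j9 fell by 0.32 and Cyp2j6 by 0.23. The fall of Cyp2j9 reached an adjusted p of up to 0.0694 without WT mouse 2 of 4 weeks or WT mouse 2 or 5 of 7 weeks.

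Cyp2j11 had the largest Cyp2j difference at 7 weeks, with signals of 9.32, 10.38 and 11.02 in KO and 11.20, 11.36 and 11.41 in WT. At 4 weeks its signals were 10.67, 11.63 and 11.84 in KO and 11.45, 11.57 and 11.88 in WT. The KO mice at 7 weeks were below all WT mice and below most KO mice of 4 weeks. The difference was -1.04 ± 0.17 at 7 weeks (adjusted p = 9.5e-06), the KO change with age -1.24 ± 0.17 (adjusted p = 4.32e-07) and the WT change with age -0.28 ± 0.17 (adjusted p = 0.24), with an interaction of -0.96 ± 0.24 (adjusted p = 0.00458). In the fit of the WT groups alone the WT fall passed (adjusted p = 0.00225).

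Cyp2j5, the main renal epoxygenase of this group in mice, moved little: 12.81, 13.02 and 13.12 in KO and 13.01, 13.18 and 13.30 in WT at 7 weeks, a difference of -0.16 ± 0.05 (adjusted p = 0.0277). That call was lost under 5 single omissions (WT mice 1, 3 and 7 and KO mice 1 and 6 of 7 weeks, adjusted p up to 0.0774). Cyp2j13 had 11.25, 11.75 and 12.01 in KO and 12.05, 12.20 and 12.39 in WT at 7 weeks. All KO mice lay below all WT mice in Cyp2j13 (-0.49 ± 0.11, adjusted p = 6.84e-04). Its interaction of -0.44 ± 0.16 (adjusted p = 0.048) was lost under 22 of 32 single omissions, and the Cyp2j12 call at 7 weeks (-0.27 ± 0.11, adjusted p = 0.0489) under 21.

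Of the 15 Cyp2c genes, clustered on chromosome 19, 2 were lower in KO at 7 weeks, Cyp2c37 and Cyp2c69, and none passed with age in WT. With age in KO, Cyp2c39 fell from a mean of 5.83 to 5.38 and Cyp2c69 from 4.95 to 3.98. Both calls held under every single omission. Only Cyp2c23, Cyp2c39 and Cyp2c55 had mean signals above the receptor level, so most of the subfamily, with Cyp2c37 and Cyp2c69, was at low signal. Cyp2c69 had 3.12, 4.05 and 4.75 in KO and 4.18, 4.73 and 5.14 in WT at 7 weeks (-0.68 ± 0.20, adjusted p = 0.00788). Its interaction of -0.79 ± 0.28 (adjusted p = 0.0494) was lost with replicate number as a block (adjusted p = 0.0713), with array weights (adjusted p = 0.0642) and under 18 single omissions. The Cyp2c37 difference of -0.36 ± 0.14 (adjusted p = 0.0452) was lost under 9. Cyp2c23, a renal arachidonic acid epoxygenase, had signals of 8.55, 9.21 and 9.75 in KO and 7.09, 9.02 and 10.22 in WT at 7 weeks, and 7.04, 9.32 and 9.66 in KO and 8.44, 8.93 and 10.04 in WT at 4 weeks. This spread left a standard error of 0.34 on a difference of 0.23 at 7 weeks, and the groups overlapped throughout.

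The remaining family 2 genes are single members of their subfamilies. Cyp2f2, best known for naphthalene metabolism in mouse airway, had 7.00, 8.23 and 9.01 in KO and 8.99, 9.42 and 9.65 in WT at 7 weeks, and 8.67, 8.90 and 9.35 in KO and 8.57, 8.91 and 9.35 in WT at 4 weeks. The groups of 4 weeks coincided, whereas 7 of 8 KO mice of 7 weeks lay below all WT mice. The difference at 7 weeks was -1.26 ± 0.19 (adjusted p = 3.44e-06), the KO change with age -0.85 ± 0.19 (adjusted p = 5.68e-04) and the interaction -1.28 ± 0.27 (adjusted p = 0.00112). Age in WT gave 0.43 ± 0.19 (adjusted p = 0.0955), which passed in the fit of the WT groups alone (0.00421), with array weights (0.034) and with the mean of its features (0.62, adjusted p = 0.00256).

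Cyp2e1, the ethanol-inducible enzyme, had 12.03, 12.97 and 13.22 in KO and 13.05, 13.14 and 13.21 in WT at 7 weeks. Its lower KO level (-0.29 ± 0.11, adjusted p = 0.0372) did not pass in the fit of the 7-week groups alone (adjusted p = 0.0802) or under 7 single omissions. Without KO mouse 6 of 7 weeks it was -0.17, and 1 KO mouse lay above all WT mice. It rose with age in WT by 0.40 ± 0.11 (adjusted p = 0.00454). Cyp2u1, a hydroxylase of long-chain fatty acids, had 6.86, 7.00 and 7.35 in KO and 7.18, 7.49 and 7.66 in WT at 7 weeks (-0.40 ± 0.08, adjusted p = 2.29e-04), and rose by 0.32 ± 0.08 with age in WT, with an interaction of -0.38 ± 0.12 (adjusted p = 0.0203). Cyp2s1, an extrahepatic enzyme, went the other way: 8.25, 8.38 and 8.86 in KO and 7.71, 7.89 and 8.20 in WT at 7 weeks, with every KO mouse above every WT mouse (0.55 ± 0.12, adjusted p = 4.82e-04). It rose with age in both genotypes, by 0.98 ± 0.12 in KO and 0.45 ± 0.12 in WT, and the interaction of 0.53 ± 0.17 (adjusted p = 0.0284) was lost after centring (adjusted p = 0.0562) and without WT mouse 1 of 4 weeks or KO mouse 6 or 8 of 7 weeks (adjusted p up to 0.055). Cyp2ab1, Cyp2t4 and Cyp2w1 did not pass in any of the 5 comparisons, with differences at 7 weeks of 0.22 ± 0.13, -0.16 ± 0.11 and -0.04 ± 0.09. Cyp2t4 passed at 7 weeks (0.0383) and with age in KO (0.0346) once arrays were centred. Cyp2g1 had 3.41, 3.65 and 3.86 in KO and 3.23, 3.87 and 4.23 in WT at 7 weeks, below the receptor level, and passed in the interaction (-0.45 ± 0.16, adjusted p = 0.0402). Cyp2r1, which hydroxylates vitamin D in liver, had an adjusted p of 0.0843 at 7 weeks (0.26 ± 0.11), below the threshold in the fit of the 7-week groups alone (0.0471) and with array weights (0.0345).

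In family 1, the aryl hydrocarbon receptor targets, Cyp1b1 rose and Cyp1a1 was lower. Cyp1b1, an enzyme of estradiol and foreign compounds found in mesenchymal cells, had 7.60, 8.13 and 8.47 in KO and 6.45, 6.73 and 6.97 in WT at 7 weeks, and 6.92, 7.13 and 7.49 in KO and 6.46, 6.88 and 7.55 in WT at 4 weeks. All 8 KO mice of 7 weeks were above all mice of the other groups. The difference was 1.35 ± 0.12, or 2.55-fold (adjusted p = 2.51e-10), the change with age 0.92 ± 0.12 in KO (adjusted p = 3.56e-07) and -0.15 ± 0.12 in WT (adjusted p = 0.421), and the interaction 1.07 ± 0.18 (adjusted p = 5.58e-05). The fibroblast list was higher too, at a mean level per mouse of 8.55 to 9.34 in KO and 7.34 to 7.73 in WT at 7 weeks. So were the macrophage and tubular injury lists, and the part of any of these lists in the Cyp1b1 difference was not tested. Cyp1a1, the main inducible family member, lay below the receptor level, with 5.12, 5.21 and 5.29 in KO and 5.18, 5.50 and 5.70 in WT at 7 weeks (-0.26 ± 0.08, adjusted p = 0.0174), and Cyp1a2 differed by -0.01 ± 0.08.

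The Cyp3a genes, the main drug-oxidizing enzymes of liver and gut, had 1 of 7 higher and 2 of 7 lower in KO at 7 weeks, all with means below the receptor level. Cyp3a13 had 5.41, 5.78 and 5.90 in KO and 4.48, 4.99 and 5.33 in WT at 7 weeks, and 4.98, 5.36 and 5.67 in KO and 4.95, 5.31 and 5.41 in WT at 4 weeks. KO and WT mice of 7 weeks did not overlap, and the ages moved apart. The difference at 7 weeks was 0.77 ± 0.10 (adjusted p = 2.24e-07), and with age the gene rose by 0.38 ± 0.10 in KO and fell by 0.31 in WT (SE 0.10), with an interaction of 0.69 ± 0.14 (adjusted p = 8.12e-04). The WT fall was lost without WT mouse 5 of 7 weeks (adjusted p = 0.0563). Cyp3a11 and Cyp3a57 differed by -0.38 ± 0.11 and -0.65 ± 0.15.

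In family 4, which hydroxylates fatty acid ends, 7 of 19 members were lower and 2 higher in KO at 7 weeks, and 7 rose and none fell with age in WT. Over all genes 16.7% were lower and 15.6% higher, and 15.4% rose and 14.1% fell. Cyp4a12a, an androgen-dependent enzyme that makes the vasoactive 20-hydroxy metabolite of arachidonic acid in male mouse kidney, had 6.21, 7.10 and 8.25 in KO and 8.14, 8.33 and 8.47 in WT at 7 weeks. At 4 weeks its signals were 5.85, 6.64 and 7.30 in KO and 4.15, 7.16 and 7.34 in WT. The WT mice of 7 weeks were tightly grouped above all WT mice of 4 weeks. The differences were -1.08 ± 0.32 at 7 weeks (adjusted p = 0.0081), 0.70 ± 0.32 with age in KO (adjusted p = 0.0766) and 1.69 ± 0.32 with age in WT (adjusted p = 1.23e-04). The KO age change passed with the KO groups alone (0.0332) and with a replicate block (0.0472), and the interaction of -0.99 ± 0.45 (adjusted p = 0.134) passed with array weights (0.0437).

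Cyp4a12b, its near-identical paralog, showed another pattern, with 8.70, 9.56 and 10.32 in KO and 8.29, 8.88 and 9.40 in WT at 7 weeks, and 7.27, 7.93 and 9.67 in KO and 7.25, 8.09 and 9.25 in WT at 4 weeks. It rose with age in KO by 1.42 ± 0.27 (adjusted p = 7.28e-05), while 0.69 ± 0.27 with age in WT (adjusted p = 0.0553) and 0.65 ± 0.27 for KO against WT at 7 weeks (adjusted p = 0.069) did not pass. These last results passed under 8 and 4 single omissions. Probes of the pair may detect both transcripts. Cyp4a31, among the highest signals of the family at 12.48 to 12.81 in KO and 12.52 to 12.78 in WT at 7 weeks, differed by less than 0.01 between them.

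Cyp4b1, a hydroxylase of fatty acids and foreign compounds, had 12.34, 12.94 and 13.23 in KO and 13.19, 13.32 and 13.39 in WT at 7 weeks (-0.39 ± 0.11, adjusted p = 0.004), and rose with age by 0.26 ± 0.11 in KO and 0.63 ± 0.11 in WT. The KO rise was lost under 20 single omissions, after centring (adjusted p = 0.157) and with the KO groups alone (adjusted p = 0.122). Its pseudogene Cyp4b1-ps2, at low signal, had an interaction of -0.92 ± 0.19 (adjusted p = 0.00104). Probes of a shared sequence may detect both.

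The Cyp4f genes, hydroxylases of leukotrienes and fatty acids, had 4 of 10 lower and 1 higher in KO at 7 weeks, and 4 rose with age in WT. Cyp4f14, which inactivates leukotriene B4 in mice, had 4.83, 5.56 and 5.67 in KO and 6.03, 6.27 and 6.5 in WT at 7 weeks, and 5.14, 5.45 and 5.66 in KO and 5.04, 5.32 and 5.84 in WT at 4 weeks. WT mice of 7 weeks stood above all other mice. The means of 5.40 in KO at 7 weeks and of 5.44 in KO and 5.37 in WT at 4 weeks were near the receptor level of 5.44. Low signal there limits what the KO values show. The difference was -0.85 ± 0.12 at 7 weeks (adjusted p = 5.3e-07), -0.04 ± 0.12 with age in KO and 0.88 ± 0.12 with age in WT (adjusted p = 1.39e-06), and the interaction was -0.91 ± 0.16 (adjusted p = 1.55e-04).

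Cyp4f13 had 9.43, 9.56 and 9.72 in KO and 9.80, 9.84 and 9.95 in WT at 7 weeks, and 8.94, 8.99 and 9.44 in KO and 8.96, 9.10 and 9.29 in WT at 4 weeks. It rose with age by 0.51 ± 0.07 in KO and 0.74 ± 0.07 in WT (adjusted p = 3.17e-09) and was lower in KO at 7 weeks (-0.28 ± 0.07, adjusted p = 0.00108), with no overlap. Cyp4f17 rose with age by 0.39 ± 0.09 in KO and 0.50 ± 0.09 in WT and differed by 0.09 ± 0.09 between genotypes at 7 weeks. Cyp4f16 rose instead in KO at 7 weeks, with 6.26, 6.79 and 7.03 in KO and 5.48, 6.18 and 6.5 in WT (0.59 ± 0.13, adjusted p = 5.49e-04), while 0.09 ± 0.13 with age in WT did not pass. The age rise of Cyp4f15 in WT (0.54 ± 0.20, adjusted p = 0.0374) was lost under 8 single omissions and the KO difference of Cyp4f40 (-0.30 ± 0.11, adjusted p = 0.0331) under 7.

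Cyp4v3, the mouse counterpart of the human fatty acid hydroxylase CYP4V2, had 7.33, 8.14 and 8.46 in KO and 6.71, 6.81 and 7.12 in WT at 7 weeks, and 6.40, 6.62 and 6.95 in KO and 6.36, 6.71 and 7.42 in WT at 4 weeks. The 7-week KO mice lay above all 7-week WT mice. The difference was 1.18 ± 0.15 (adjusted p = 8.86e-08), the change with age 1.36 ± 0.15 in KO (adjusted p = 6.78e-09) and 0.05 ± 0.15 in WT, and the interaction 1.32 ± 0.21 (adjusted p = 3.29e-05). The macrophage list was higher too, at a mean level per mouse of 8.15 to 9.55 in KO and 6.37 to 6.68 in WT at 7 weeks. So were the fibroblast and tubular injury lists, and the part of any of these lists in the Cyp4v3 difference was not tested. Cyp4x1 had 5.34, 5.52 and 5.98 in KO and 5.55, 5.82 and 6.00 in WT at 7 weeks, and its difference of -0.22 ± 0.10 (adjusted p = 0.0803) passed with arrays centred (0.00675) and with array weights (0.00625).

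In the families of sterols, steroids and retinoids, 2 of 15 members were lower in KO at 7 weeks and none higher, and 2 rose and 1 fell with age in WT. Cyp7b1, the oxysterol hydroxylase that also clears steroids, had 8.66, 10.63 and 11.31 in KO and 11.23, 11.57 and 11.99 in WT at 7 weeks, and 6.48, 8.64 and 9.61 in KO and 6.83, 8.93 and 10.44 in WT at 4 weeks. Both groups of 4 weeks were scattered, and 7 of 8 KO mice of 7 weeks lay below all WT mice. With age it rose by 1.87 ± 0.43 in KO (adjusted p = 6.48e-04) and by 2.97 ± 0.43, or 7.82-fold, in WT (adjusted p = 4.64e-06), the largest WT age difference of the 94 members. The difference at 7 weeks was -1.29 ± 0.43 (adjusted p = 0.0203), and it did not pass without KO mouse 6 of 7 weeks (adjusted p = 0.0615). The interaction of -1.10 did not pass (adjusted p = 0.238).

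Cyp27a1, the mitochondrial sterol hydroxylase, had 9.53, 9.70 and 9.95 in KO and 9.96, 10.04 and 10.22 in WT at 7 weeks, and 8.60, 8.94 and 9.89 in KO and 8.86, 9.06 and 9.27 in WT at 4 weeks. It was lower in KO at 7 weeks (-0.36 ± 0.11, adjusted p = 0.0119), with no overlap, and rose with age by 0.68 ± 0.11 in KO and 1.02 ± 0.11 in WT (adjusted p = 1.04e-07). Cyp39a1, another oxysterol hydroxylase, fell with age by 0.51 in WT (SE 0.12, adjusted p = 0.00105) and by 0.29 in KO (SE 0.12, adjusted p = 0.0428), the KO fall being lost under 9 single omissions and with the KO groups alone (adjusted p = 0.0754). It differed by 0.12 ± 0.12 between KO and WT at 7 weeks. Cyp46a1, the brain cholesterol hydroxylase, and Cyp7a1 and Cyp8b1, enzymes of bile acid synthesis in liver, did not pass in any of the 5 comparisons, with 7-week differences of -0.03, -0.02 and 0.16.

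Steroid hormone genes of the adrenal and gonad were at low signal: Cyp11a1 4.77, 5.02 and 5.20 in KO and 4.70, 5.10 and 5.35 in WT at 7 weeks, Cyp17a1 4.33, 4.82 and 5.20 in KO and 5.03, 5.13 and 5.22 in WT. Cyp11b1, Cyp11b2 and Cyp21a1 had means below 5 in all groups. None of the 5 passed in any comparison, although Cyp11a1, Cyp11b2 and Cyp17a1 passed at 7 weeks once arrays were centred (adjusted p = 0.035, 0.0386 and 0.00896), and Cyp17a1 also did with the 7-week groups alone (0.0356) and array weights (0.0329). Of the retinoic acid hydroxylases, Cyp26a1, Cyp26b1 and Cyp26c1 differed at 7 weeks by -0.15, 0.07 and -0.02. Cyp26a1 passed there with arrays centred (0.0185) and with array weights (0.0461). Cyp26c1 fell with age in KO by 0.27 (adjusted p = 0.0175). That fall was lost without KO mouse 2 of 7 weeks (adjusted p = 0.051). Cyp20a1, an enzyme with no settled substrate, fell with age in KO by 0.24 (adjusted p = 0.0117).

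P450 activity needs electron donors and heme. Of 14 such genes measured, 9 were lower and 1 higher in KO at 7 weeks (median -0.26), and 8 rose and none fell with age in WT. Over all genes 16.7% were lower and 15.6% higher, and 15.4% rose and 14.1% fell. Cytochrome b5 (Cyb5a, -0.48 ± 0.07, adjusted p = 2.84e-06), its mitochondrial form Cyb5b (-0.40 ± 0.06) and ferredoxin Fdx1, donor of the mitochondrial enzymes (-0.70 ± 0.11, adjusted p = 6e-06), were lower in KO. Heme oxygenase Hmox1, which degrades heme, was higher in KO (0.80 ± 0.15, adjusted p = 6.7e-05). Alas1, the rate-limiting enzyme of heme synthesis, rose with age in WT by 1.23 ± 0.14 (adjusted p = 1.91e-07), and its KO difference at 7 weeks of -0.26 ± 0.14 did not pass (adjusted p = 0.17).

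Of 24 nuclear receptors and other regulators of Cyp genes, 9 were lower and 3 higher in KO at 7 weeks (median -0.13), against 16.7% and 15.6% of all genes. Hnf4a, the hepatocyte factor that also acts in proximal tubule, differed by -0.47 ± 0.08 (adjusted p = 2.66e-05), the bile acid receptor Nr1h4 by -0.56 ± 0.11 and the estrogen receptor Esr1 by -0.54 ± 0.11. Ppara, the fatty acid receptor that induces family 4, differed by -0.73 ± 0.15 (adjusted p = 1.86e-04). Higher in KO were Nfe2l2 of the oxidant response (0.43 ± 0.10), the aryl hydrocarbon receptor Ahr (0.27 ± 0.08) and the xenobiotic receptor Nr1i2 (0.36 ± 0.13). With age in WT, 5 rose, among them Ppard by 0.79 ± 0.16 and Rara by 0.65 ± 0.13, and 2 fell.

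**Figure D4:**
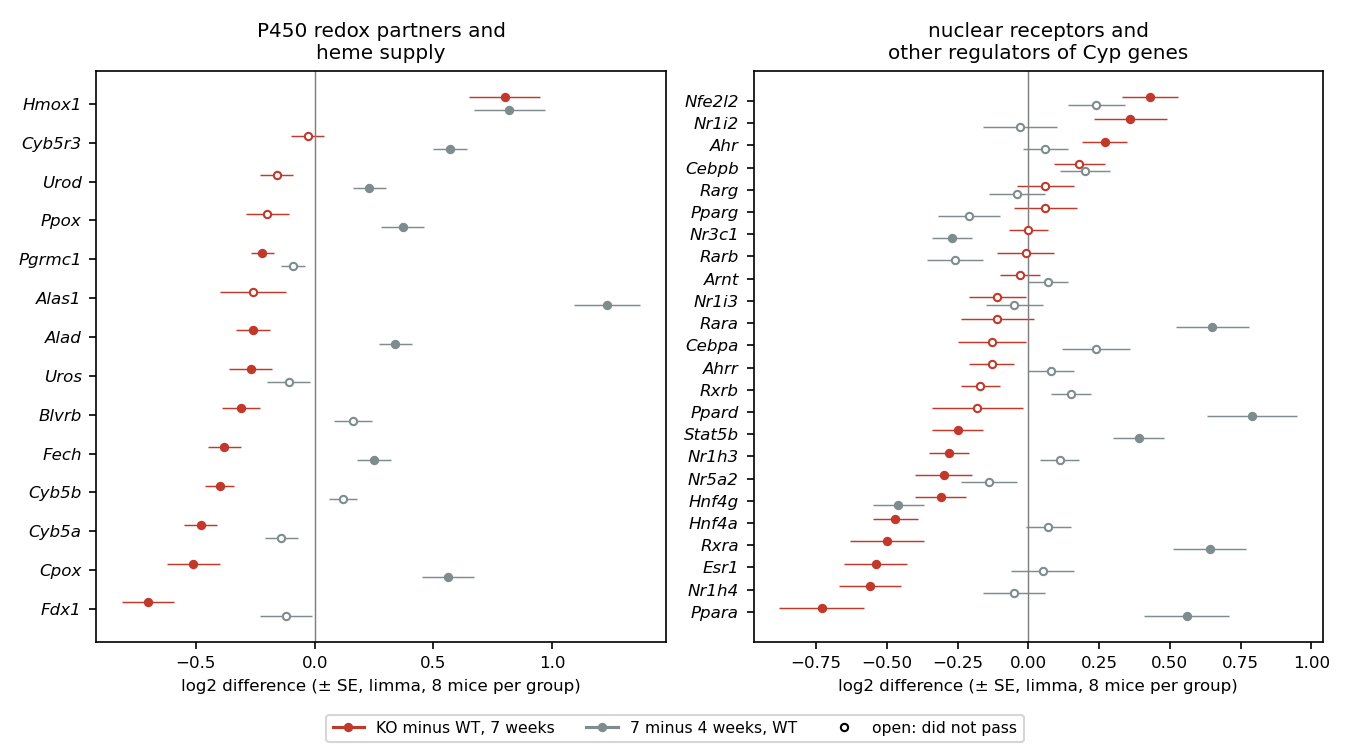
Genes of P450 redox partners and heme supply (left) and regulators of Cyp genes (right): log2 differences (x axis) for KO minus WT at 7 weeks and for 7 minus 4 weeks in WT, with limma standard errors and 8 mice per group; open points did not pass. Most redox and heme genes lie below 0 for KO minus WT, from -0.70 for Fdx1, with Hmox1 at 0.80, and Alas1 has the largest age difference in WT at 1.23.

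Several Cyp genes of male mouse kidney respond to androgen, so 6 other androgen-responsive genes were read beside them. Kap and Slc7a13 are also in the proximal tubule list, so these lists are not separate readings. In KO at 7 weeks 5 were lower and 1 higher: all are given, Slc7a13, a proximal tubule transporter, by -1.39 ± 0.26 (adjusted p = 7.25e-05), Slco1a1 by -1.33 ± 0.33, Odc1, of polyamine synthesis, by -0.85 ± 0.19, Nudt19 by -0.60 ± 0.12 and Kap by -0.26 ± 0.09, against a higher Gusb (0.32 ± 0.10). With age in WT, Gusb rose by 0.74 ± 0.10 (adjusted p = 2.49e-06) and the other 5 did not pass. Their mean level per mouse was 9.89 to 11.31 in KO and 11.36 to 11.58 in WT at 7 weeks, and 10.71 to 11.51 in KO and 10.54 to 11.48 in WT at 4 weeks.

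Markers of cells that could bring in Cyp transcripts were also read. The mean of the hepatocyte list stayed between 5.26 and 5.73 per mouse over all 32 arrays, with 2 of 9 genes higher and 2 of 9 lower in KO at 7 weeks. Single genes of that list differed there by -1.24 to 0.94. The mean of the adrenal cortex list per mouse was 5.42 to 5.65 in KO and 5.49 to 5.73 in WT at 7 weeks. In that list 1 of 7 genes was higher and 1 of 7 lower. The lower gene was Fdx1, which was also read above with the redox partners. Of the thick ascending limb, distal tubule and collecting duct genes 8 of 14 were lower in KO and none higher, of endothelial genes 3 of 8 lower, of lymphocyte genes 5 of 7 higher and of adipocyte genes 1 of 6 lower. The part of these cells, and of the lower proximal tubule markers, in the Cyp differences was not tested.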

How the data were processed

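RNA of whole kidney from 32 mice was hybridised, 1 array per mouse, to Affymetrix Mouse Gene 2.0 ST arrays. The authors deposited gene-level signals on the log2 scale made by RMA, in Affymetrix Expression Console per the submitters' processing notes; its version is not stated there. No unit was changed, and 0 columns were left unmapped. Of 41345 features, 23521 named 1 gene symbol, and the feature with the highest mean was kept per symbol. limma 3.58.1 in R 4.3.3 fitted a mean per group over all 32 mice and 22180 genes, with Benjamini-Hochberg adjustment and a threshold of 0.05, in 5 comparisons; the fit was tested on simulated data. Tables were made with Python 3.11.15, numpy 2.4.6 and pandas 2.3.3, figures with matplotlib 3.10.9. The members and lists were chosen with earlier results of these data known. Members given in detail were the 12 largest differences among members that passed, each in the interaction, in KO against WT at 7 weeks and in WT age. Families 7 and above and the highest member of each other subfamily were added. Other members are named with counts or values. Cyp2j13 passed in the interaction but was not among these 46 members, which were the ones followed singly under the alternatives. In each list, up to 4 genes of smallest p and 2 that did not pass were named, and genes that moved against the rest were added after their values were seen. Replicate numbers did not pair mice across groups: same-number deviations correlated at -0.27 to 0.23. Alternatives were array centring, fewer groups, array weights, another variance model, a low-signal filter, feature means, a replicate block and leaving out each mouse. The number of arrays limits precision. Scan batches were not analysed here.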

Additional observations from a re-analysis of the deposited data

Results flagged for a closer look

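In 19 of 184 groups of 8 mice, over 46 members, 1 mouse stood far from the other 7; about 1 group in 20 does so by chance. KO mouse 4 of 4 weeks was the highest in Cyp27a1 (9.89) and Cyp4f13 (9.44) and the lowest in Cyp2j11 (10.67) and Cyp39a1 (8.73). WT mouse 1 of 4 weeks was the highest in Cyp2d22 (9.70), Cyp2d26 (10.64) and Cyp4a31 (13.14) and the lowest in Cyp4a12a (4.15, with the next at 6.18). KO mouse 6 of 4 weeks was the highest in Cyp11b1 (4.15) and Cyp4b1-ps2 (4.41), and KO mouse 1 of 4 weeks in Cyp11b2 (5.51). Cyp2c23 had 1 low mouse in each of 2 groups, KO mouse 3 of 4 weeks (7.04) and WT mouse 7 of 7 weeks (7.09). KO mouse 6 of 7 weeks was the highest in Cyp20a1 (8.10) and the lowest in Cyp2d22 (8.80), and KO mouse 3 of 7 weeks was the highest in Cyp26b1 (7.18). WT mouse 6 of 7 weeks was the lowest in Cyp26a1 (4.67) and Cyp46a1 (5.76), and WT mouse 8 of 4 weeks was the highest in Cyp1b1 (7.55).

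The KO effect differed between 7 and 4 weeks for 17 members in the interaction test. The difference (7-week effect minus 4-week effect, log2) was positive for Cyp4v3 (1.32), Cyp1b1 (1.07), Cyp3a13 (0.69) and Cyp2s1 (0.53). It was negative for Cyp2d12 (-2.56), Cyp2f2 (-1.28), Cyp2d9 (-1.09), Cyp2j11 (-0.96), Cyp4b1-ps2 (-0.92), Cyp4f14 (-0.91), Cyp2d26 (-0.86), Cyp2c69 (-0.79), Cyp2a4 (-0.71), Cyp2b9 (-0.65), Cyp2g1 (-0.45), Cyp2j13 (-0.44) and Cyp2u1 (-0.38). The Cyp2g1 call was lost under 16 of 32 single omissions (adjusted p up to 0.071).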

How the results depend on the processing

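Of 46 members followed singly, none that passed changed sign under the alternatives run, but for age in KO the balance turned: 15 rose and 14 fell, against 14 and 26 with arrays centred and 15 and 18 with array weights. With genes at or below the receptor level left out, which removes 54 of the 94 members from the test, 18 members were lower in KO at 7 weeks. Array centring gave 20 members toward lower signal in the interaction and 26 that fell with age in KO; the share of rises among members that passed was 13.0% after centring, against 23.5% without it, in the interaction, and 35.0%, against 51.7%, for age in KO. Over all genes that passed after centring it was 33.2% and 35.1%. Leaving out each of the 32 mice in turn gave 5 to 6 higher and 25 to 33 lower in KO at 7 weeks, 0 at 4 weeks, 3 to 5 and 7 to 15 in the interaction, 19 to 22 and 2 to 6 for age in WT, and 13 to 17 and 11 to 16 for age in KO. Calls held under every omission for 27 of 35 members at 7 weeks, 10 of 17 in the interaction, 21 of 24 for age in WT and 23 of 29 for age in KO. The interaction of Cyp2d9 had an adjusted p of 0.0538 with trended, robust variances. With replicate number as a block the counts were 5 higher and 29 lower in KO at 7 weeks, 4 and 12 in the interaction, 20 and 4 for age in WT, 16 and 14 for age in KO and 0 at 4 weeks. The number of arrays per group and low signal limit what can be seen.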

Other observations

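Genes that act beside the Cyp enzymes on the same substrates moved at 7 weeks as well. At that age 15.6% of all genes were higher and 16.7% lower in KO. Of 13 eicosanoid enzymes outside the family, 6 were higher and 1 lower in KO than in WT: Alox5ap, the activator of leukotriene synthesis (2.18 ± 0.17), Pla2g4a, which releases arachidonic acid (1.16), and Ptgs2, the inducible prostaglandin synthase (0.99), were higher, and Ephx2, the soluble hydrolase of the epoxides that Cyp2j and Cyp2c enzymes make, was lower (-0.78, adjusted p = 4.32e-06). Of 2 P450 enzymes with other symbols, thromboxane synthase Tbxas1 was higher (0.34, adjusted p = 0.0209) and prostacyclin synthase Ptgis differed by 0.02 (adjusted p = 0.856).

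Of 13 retinoid genes beside Cyp26, 7 were higher and 1 lower in KO at 7 weeks, with the retinoic acid synthase Aldh1a2 at 2.68 and the retinol transporter Stra6 at 2.06. Of 14 oxysterol and steroid enzymes beside P450, 2 were higher, the cholesterol hydroxylase Ch25h (1.18) and Hsd3b7 (0.52), and 7 were lower, among them Hsd17b11 (-0.97).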
